A study of Arabidopsis thaliana with 18 samples.

Results

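The genes described here build the glycolipids of plastid membranes or desaturate the fatty acids those lipids carry. They were 10 Arabidopsis thaliana genes chosen by locus identifier, of 24951 genes listed in any library: the monogalactosyldiacylglycerol synthases MGD1 (AT4G31780), MGD2 (AT5G20410) and MGD3 (AT2G11810, named MGDC in the files), the digalactosyldiacylglycerol synthases DGD1 (AT3G11670) and DGD2 (AT4G00550), the sulfolipid genes SQD1 (AT4G33030) and SQD2 (AT5G01220), and the desaturases FAD6 (AT4G30950), FAD7 (AT3G11170) and FAD8 (AT5G05580). Whole wild type seedlings were held in darkness for 7 days on MS medium (a mineral salt medium), which leaves them etiolated, that is pale and without chlorophyll. They then received light for 0, 1, 2, 4, 8 or 12 hours, and polyA RNA of 3 libraries per time (18 in all) was sequenced on the BGISEQ-500 platform. No seedlings stayed in darkness through the later hours, so time in light cannot be told apart from age or time of day. Nothing in the labels says that the replicates were separate cultures, so p-values measure the spread between these libraries, which may be technical.

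Thylakoids, the membranes that hold the photosystems, consist largely of galactolipids and a smaller part of the sulfolipid sulfoquinovosyldiacylglycerol. MGD enzymes add a galactose to diacylglycerol in the plastid envelope and DGD enzymes add the next galactose. SQD1 makes the sulfur-bearing sugar donor and SQD2 moves that sugar onto diacylglycerol. FAD6 introduces the second double bond into fatty acids bound in plastid lipids, and FAD7 and FAD8 introduce the third, which gives the highly unsaturated acyl chains typical of thylakoids. MGD1, DGD1, FAD6 and FAD7 are known as the main enzymes of their steps in green tissue, while MGD2, MGD3, DGD2 and SQD2 are known for their response to phosphate shortage and FAD8 for its response to cold.

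The sequences just upstream of 4 genes, chosen by the courses of their levels, are shown: the 3 desaturases, which rose together, and MGD2, which peaked at 2 h. Each is the 250 bases before the gene start in the RefSeq annotation of TAIR10.1, written 5′ to 3′ on the gene's strand. Capitals mark a match to P1BS, the phosphate starvation element, searched as GNATATNC, or to the I-box, an element of light-regulated promoters, searched as GATAAG.
FAD6, chr4:15059847-15060096, reverse strand: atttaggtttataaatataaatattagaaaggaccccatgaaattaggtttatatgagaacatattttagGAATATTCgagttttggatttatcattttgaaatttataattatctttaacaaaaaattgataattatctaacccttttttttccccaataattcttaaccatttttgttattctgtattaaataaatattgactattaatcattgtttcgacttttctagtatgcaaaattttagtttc
FAD7, chr3:3499287-3499536, forward strand: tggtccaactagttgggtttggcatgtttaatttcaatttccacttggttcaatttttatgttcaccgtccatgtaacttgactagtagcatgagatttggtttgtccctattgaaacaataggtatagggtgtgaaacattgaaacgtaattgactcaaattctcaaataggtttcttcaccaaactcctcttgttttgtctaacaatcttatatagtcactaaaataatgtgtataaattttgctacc
FAD8, chr5:1663790-1664039, forward strand: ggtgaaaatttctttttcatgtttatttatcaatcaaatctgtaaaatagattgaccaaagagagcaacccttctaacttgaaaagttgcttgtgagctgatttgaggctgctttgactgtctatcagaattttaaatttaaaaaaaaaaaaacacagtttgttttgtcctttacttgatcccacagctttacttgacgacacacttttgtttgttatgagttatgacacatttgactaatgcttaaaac
MGD2, chr5:6896213-6896462, forward strand: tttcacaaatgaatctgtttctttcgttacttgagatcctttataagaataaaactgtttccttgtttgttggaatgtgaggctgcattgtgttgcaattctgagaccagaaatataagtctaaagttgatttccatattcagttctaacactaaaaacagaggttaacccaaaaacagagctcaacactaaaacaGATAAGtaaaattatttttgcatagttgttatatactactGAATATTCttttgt

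Both strands were searched in a window from 250 bases before to 50 bases after the start of each gene. P1BS letters lay in the window of 5 of the 10 genes (MGD1, MGD2, DGD1, SQD1 and FAD6) and in 6.25% of 27443 promoters. The I-box was in 2 of the 10 (MGD1 and MGD2) and in 14.6% of all promoters. The G-box CACGTG, bound by several light-signalling factors, was in 0 of the 10 and in 7.68% of all, and the evening element AAAATATCT, a clock-related motif, was in 0 of the 10 and in 2.82% of all. Of the 4 motifs, none overlapped another within the 10 windows. FAD7 and FAD8 held none of these letters in their windows, FAD6 held P1BS from position −180 relative to its gene start. MGD2 held P1BS from positions −14 and 38 and the I-box from position −54. In MGD1, DGD1 and SQD1 the only P1BS match lay after the gene start, from positions 26, 41 and 15. The I-box of MGD1 also lay after it, from position 35. These are matches of letters and describe the windows only.

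Values are given as FPKM, a level per transcript length and per library depth, and differences as log2 fold changes of counts with an approximate standard error (SE). All adjusted p-values are from edgeR's quasi-likelihood test with Benjamini-Hochberg adjustment over 20569 tested genes, and a gene is called higher or lower at an adjusted p under 0.05. All 10 genes passed the filter on low counts. Summed expected counts per library lay between 20072467 (replicate 3 at 8 h) and 22760811, and the other 17 libraries held at least 22408394. Replicate 3 at 0 h and replicate 3 at 2 h stood apart. Over log2(FPKM + 1) they correlated with the others of their time at 0.963 to 0.968, against 0.982 to 0.995 for the remaining pairs. Summed FPKM of 4 seed storage genes was 11330 in replicate 3 of the dark group against 1662 and 650.4 in the other two, and that of 4 light response genes was 388.2 in replicate 3 at 2 h against 1374 and 1145. Their part in the results was not tested, and the effect of leaving both libraries out is given where it matters. As the RNA came from whole seedlings, a change in the number of cells of a type and a change in RNA per cell cannot be told apart.

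After 12 h of light, 5 of the 10 genes were higher than in the dark (24.1% of all tested genes were) and 0 were lower (23.3% of all). The 5 were FAD8, FAD7, FAD6, SQD2 and MGD1, in that order of fold change. The median log2 fold change of the 10 genes was 0.58, beside −0.01 over all tested genes. At 1 h only DGD1 was higher (6.92% of all genes were higher) and 0 genes were lower (3.99% of all). At 2 h 6 genes were higher (25.7% of all) and 0 lower (21.3% of all), with a median of 0.71 beside 0.10 over all genes. At 4 h 6 were higher (22.8% of all) and 1, SQD1, was lower (21.3% of all). At 8 h 5 were higher (25.1% of all) and 1, MGD3, was lower (23.1% of all). In the F test over all times, 10 of 10 genes differed, as did 75% of all tested genes. DGD2, with the largest adjusted p of the 10 (0.0498), missed the threshold under RLE size factors, without the filter on low counts and with a replicate block, which leave 9 of 10.

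The 3 zero counts against the dark group held under other tools. DESeq2 called 0 of the 10 genes lower at 1, 2 and 12 h, and at an unadjusted p under 0.05 edgeR gave 0, 0 and 1. Without both replicate 3 libraries of 0 h and 2 h, 6 genes were higher at 2 h and 6 at 12 h, SQD1 being the added gene at 12 h (log2 fold change 0.38, adjusted p = 0.0229). SQD2 then also passed the threshold at 4 h (0.54, adjusted p = 0.000863). Those libraries were named as doubtful after the data had been seen.

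**Figure D1:**
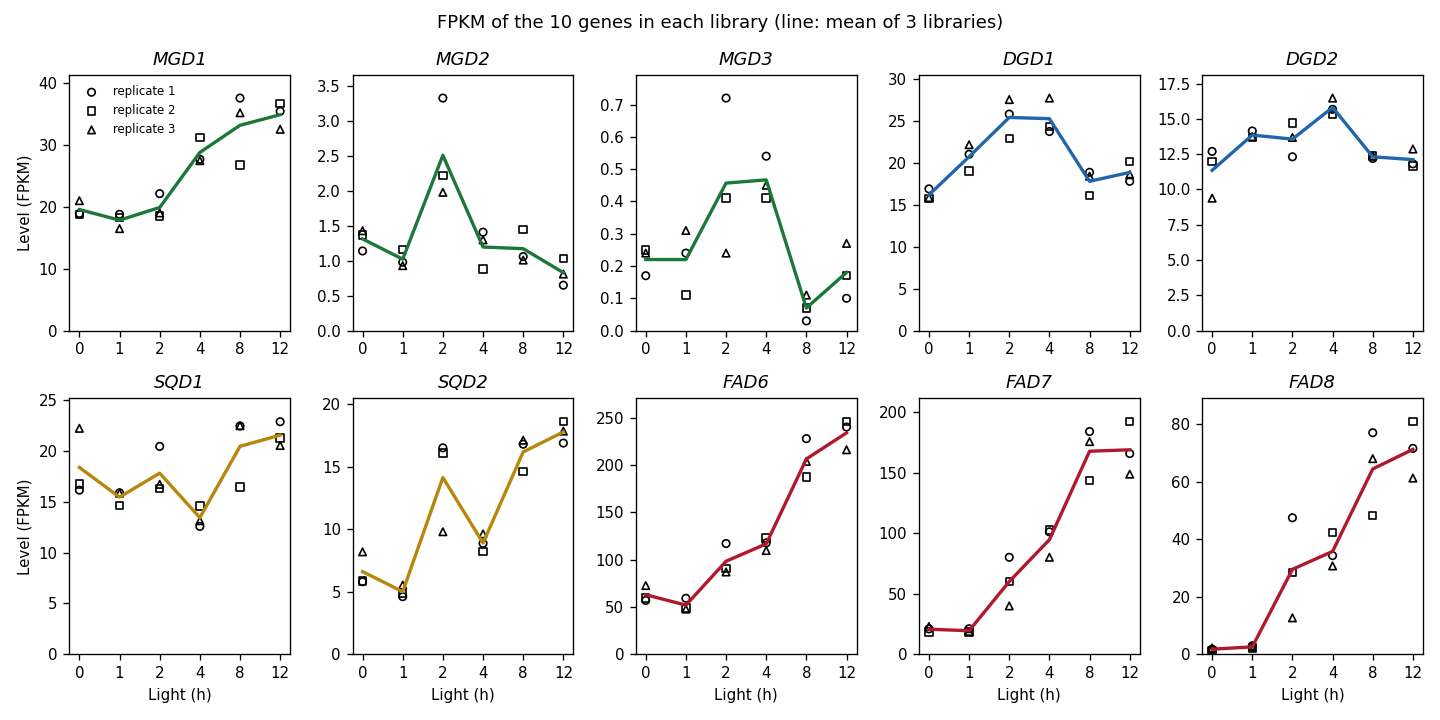
Level of each gene (FPKM, y axis from 0, scale differs by panel) in each of 18 libraries against hours of light; symbols mark the replicate and the line joins the means of 3 libraries. The 3 FAD genes climb to 8 h and 12 h, MGD2 peaks at 2 h, and DGD1 is highest at 2 h and 4 h.

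The plastid desaturases had 3 of the 3 largest log2 fold changes among the 10 genes at 12 h. FAD8 (chromosome 5, 1664040 to 1666531, forward strand, in the coordinates of the deposited tables) encodes an omega-3 desaturase of the plastid. Its level in the 3 dark libraries was 1.78, 1.37 and 2.17 FPKM, and at 1 h it was 2.97, 2.18 and 2.53 FPKM. At 2 h it was 47.5, 28.5 and 12.7 FPKM and at 4 h 34.3, 42.3 and 30.7 FPKM. It reached 77.1, 48.3 and 68.0 FPKM at 8 h and 71.6, 80.9 and 61.3 FPKM at 12 h. Every library from 2 h on was above every library of 0 h and 1 h, and the 2 h libraries were the most spread, with replicate 3 lowest. The mean of 1.77 ± 0.40 FPKM in the dark (SD, n = 3) became 71.3 ± 9.8 FPKM at 12 h (SD, n = 3), 40.2-fold higher. Its log2 fold change was 4.00 (SE 0.38) at 2 h, with an adjusted p of 1.38e-06, and 5.39 (SE 0.40) at 12 h, with an adjusted p of 4.69e-08. At 1 h it was 0.59, with an adjusted p of 0.376.

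FAD7 (chromosome 3, 3499537 to 3502452, forward strand) encodes the other omega-3 desaturase of the plastid. In the dark its level was 20.9, 18.3 and 22.9 FPKM, and at 1 h it was 21.1, 18.4 and 18.9 FPKM. It was 80.2, 60.2 and 40.0 FPKM at 2 h and 101, 103 and 80.2 FPKM at 4 h. It was 184, 144 and 176 FPKM at 8 h and 166, 192 and 149 FPKM at 12 h. The libraries of 0 h and 1 h overlapped, and all later ones lay above both. Against the dark, FAD7 rose by a log2 fold change of 1.47 (SE 0.20) after 2 h, 2.18 (SE 0.21) after 4 h and 3.07 (SE 0.22) after 8 h. After 12 h the value was 3.08 (SE 0.22), with an adjusted p of 2.35e-08 and an 8.16-fold ratio of mean FPKM. At 1 h the log2 fold change was −0.04, and it was 0.01 without replicate 3 of 1 h.

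FAD7 and FAD8 are close relatives, and their expected counts were fractional (more than 0.005 from a whole number) in 18 of 18 libraries, so reads were divided between genes and the split is uncertain. FAD8 also overlaps the locus AT5G05590 on the opposite strand, whose count reached at most 73.2 in a library, and the strand setting of the counting is not given in the sources used here. The FAD8 count itself was 70.3 ± 16.0 in the dark (SD, n = 3) and 2851 ± 399 at 12 h (SD, n = 3). With the counts of FAD7 and FAD8 summed, which does not depend on how reads were split between them, the log2 fold change was 0.01 after 1 h of light and 1.87 after 2 h. It was 2.48 after 4 h, 3.38 after 8 h and 3.42 after 12 h. The adjusted p of the sum was 0.987 at 1 h and between 2.03e-05 and 4.47e-08 from 2 h on.

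FAD6 (chromosome 4, 15056975 to 15059846, reverse strand), the omega-6 desaturase of the plastid, had the highest level of the 10 genes at every time. It stood at 56.9, 59.4 and 72.6 FPKM in the dark, at 59.2, 48.9 and 47.7 FPKM at 1 h, and at 117, 90.9 and 87.0 FPKM at 2 h. At 4 h it was 118, 123 and 110 FPKM, at 8 h 228, 188 and 204 FPKM, and at 12 h 240, 246 and 216 FPKM. The libraries of 1 h overlapped those of the dark, and those of each later time did not. FAD6 rose by a log2 fold change of 0.56 (SE 0.14, adjusted p = 0.00332) after 2 h, 0.88 after 4 h, 1.77 after 8 h and 1.95 (SE 0.14, adjusted p = 3.26e-08) at 12 h. Unlike FAD7 and FAD8, its counts were whole in all 18 libraries.

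**Figure D2:**
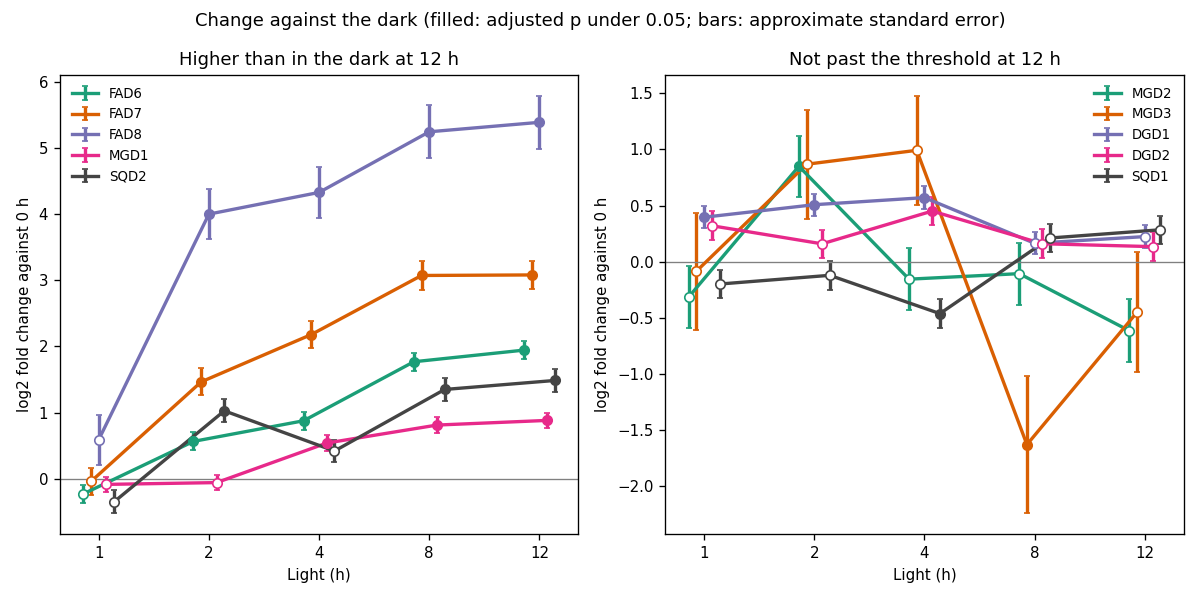
Log2 fold change of each gene against the dark group at each time, with approximate standard errors; filled points have an adjusted p under 0.05. On the left are the 5 genes higher at 12 h, led by FAD8 at 5.39; on the right are the 5 that missed the threshold at 12 h, each of which passed it at 1 or more earlier times.

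Among the enzymes of the first galactose, MGD1 rose and MGD2 and MGD3 followed other courses. MGD1 (chromosome 4, 15373999 to 15377172, forward strand) is the enzyme of the inner envelope that makes most of the galactolipid of thylakoids. Its level was 18.9, 18.8 and 21.0 FPKM in the dark, 18.8, 18.3 and 16.5 FPKM at 1 h and 22.1, 18.5 and 19.0 FPKM at 2 h. It was 27.7, 31.2 and 27.5 FPKM at 4 h, 37.6, 26.8 and 35.2 FPKM at 8 h and 35.4, 36.7 and 32.5 FPKM at 12 h. All libraries from 4 h on exceeded all libraries of 0 h to 2 h. MGD1 rose by a log2 fold change of 0.54 (SE 0.12, adjusted p = 0.00176) at 4 h, 0.81 (adjusted p = 4.96e-05) at 8 h and 0.88 (SE 0.12, adjusted p = 2.24e-05) at 12 h. The mean went from 19.6 ± 1.2 FPKM to 34.9 ± 2.1 FPKM (SD, n = 3 each), 1.78-fold higher. At 2 h the log2 fold change was −0.06, and scaling by library size alone turned it to 0.03.

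MGD2 (chromosome 5, 6896463 to 6898783, forward strand) acts at the outer envelope. Its level was 1.14, 1.37 and 1.43 FPKM in the dark and 0.98, 1.16 and 0.93 FPKM at 1 h, then 3.33, 2.22 and 1.98 FPKM at 2 h. It was back at 1.41, 0.88 and 1.30 FPKM at 4 h and at 1.06, 1.45 and 1.01 FPKM at 8 h, and it was 0.65, 1.03 and 0.81 FPKM at 12 h. The 2 h libraries lay above all others, and the 12 h libraries lay below all dark ones. Its log2 fold change was 0.85 (SE 0.27, adjusted p = 0.0178) at 2 h and −0.62 (SE 0.28, adjusted p = 0.0832) at 12 h. The call at 2 h was lost without replicate 1 of 0 h (0.75, adjusted p = 0.0627) and without replicate 1 of 2 h (0.57, adjusted p = 0.12).

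MGD3 (chromosome 2, 4744267 to 4746813, forward strand), also an outer envelope enzyme, had few reads. Its counts were 7, 9 and 8 in the dark, 8, 4 and 10 at 1 h, and 25, 14 and 8 at 2 h. They were 19, 13 and 17 at 4 h, 1, 3 and 3 at 8 h and 3, 5 and 9 at 12 h. In FPKM the highest library held 0.72 and the lowest 0.03. The 8 h libraries were below every dark library, and their summed count of 7 against 24 gives a ratio per depth of 0.301 (95% interval 0.110 to 0.720, covering counting error only). The log2 fold change at 8 h was −1.63 (SE 0.61, adjusted p = 0.0384). That call was lost under DESeq2 (adjusted p = 0.0543), under limma on FPKM (0.171), with a replicate block (0.0535) and without any 1 of the 6 libraries of 0 h and 8 h (values from −1.26 to −1.88, adjusted p from 0.0526 to 0.143). At 2 h and 4 h the summed counts of 47 and 49 were 1.95 and 2.03 times the dark value (95% intervals 1.17 to 3.33 and 1.22 to 3.47), and the adjusted p was 0.157 and 0.111. The 2 h value passed the threshold without replicate 3 of 2 h (1.19, adjusted p = 0.0497).

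The share of MGD1 in the summed FPKM of the 3 MGD genes was 92.7% ± 0.7 (SD, n = 3) in the dark. It was lowest after 2 h, 87.2% ± 2.5, and highest after 12 h, 97.2% ± 0.6 (SD, n = 3 each). MGD1 stood 14.9-fold above MGD2 before light, 8.11-fold after 2 h and 42.7-fold after 12 h. Both the 2 h and the 12 h ratios lay outside the range of the dark ratios, with an exact two-sided permutation p of 0.1. This is the smallest p that 3 libraries against 3 can give (20 arrangements), so no ratio could pass the threshold, and the value adjusted over the 25 comparisons of 5 gene pairs was 0.167.

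At 2 h, when MGD2 peaked, most of the tested root hair markers were also higher. The summed FPKM of 5 root hair markers was 5.63, 5.73 and 2.13 at 2 h and between 0.13 and 1.57 at every other time, and 3 of the 4 tested were higher at 2 h, beside 25.7% of all genes, with EXPA18 at 0 in all 3 libraries of each other time. Among them COBL9, a gene of root hair growth, had a log2 fold change of 6.48 (adjusted p = 0.000188), and of 8.33 without replicate 2 of the dark group. Its mean was 0.0067 FPKM in the dark and 0.85 FPKM at 2 h, so these folds start from a level near 0. RSL4, the tested marker not called at 2 h, averaged 0.45 FPKM at 2 h and 1.07 FPKM at 12 h. Of 13 phosphate starvation markers, 9 were tested and 3 were higher at 2 h (PHO1;H1, NPC4 and RNS1) and 1 lower (GDPD1), beside 25.7% and 21.3% of all genes, so these shares were near those of any genes. The median over the 9 was 0.43, beside 0.10 over all genes. The part of either group in the MGD2 value was not tested.

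DGD1 (chromosome 3, 3680866 to 3684871, reverse strand), the main enzyme of the second galactose, was the only one of the 10 past the threshold at 1 h; without replicate 2 of the dark group DGD2 passed it too, at 0.46. Its level was 16.9, 15.8 and 15.9 FPKM in the dark and 21.0, 19.0 and 22.2 FPKM at 1 h. It was 25.8, 22.9 and 27.5 FPKM at 2 h and 23.7, 24.3 and 27.7 FPKM at 4 h, and then 18.9, 16.1 and 18.4 FPKM at 8 h and 17.8, 20.2 and 18.6 FPKM at 12 h. The libraries of 1, 2, 4 and 12 h were all above the dark ones, while those of 8 h overlapped them. DGD1 had a log2 fold change of 0.40 (adjusted p = 0.015) at 1 h, 0.51 (adjusted p = 0.000703) at 2 h and 0.57 (SE 0.10, adjusted p = 0.000256) at 4 h. It was 0.16 (adjusted p = 0.186) at 8 h and 0.22 (adjusted p = 0.0753) at 12 h.

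DGD2 (chromosome 4, 237955 to 240579, reverse strand) makes digalactolipid under phosphate shortage. Its level was 12.7, 12.0 and 9.38 FPKM in the dark and 15.7, 15.3 and 16.5 FPKM at 4 h, and every library of the other times lay between 11.7 and 14.7 FPKM. The libraries of 1 h and of 4 h were above all dark ones. The log2 fold change at 4 h was 0.45 (SE 0.13, adjusted p = 0.00919). At 12 h it was 0.13 (adjusted p = 0.411), and it turned to −0.02 without replicate 3 of the dark group. The ratio of DGD1 to DGD2 ranged from 1.44 in the dark and at 8 h to 1.87 at 2 h, with an exact permutation p of 0.2 at 2 h.

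The transcript tables divide each gene's reads among its forms by estimation, so the shares that follow are descriptions. The shorter DGD1 transcript of 2044 bases took 2.77% of the DGD1 count in the dark (0 to 8.32% over the 3 libraries). It took 2.93% at 1 h, 10.7% at 2 h (at least 10.3% in each library) and 10.3% at 4 h. At 8 h it took 5.95% (1.62 to 9.975%) and at 12 h 9.32% (7.67 to 11.65%), and both ranges overlapped that of the dark. One MGD1 form, of 2036 bases, held 75.2% of the MGD1 count in the dark (72.8 to 78.5%) and 86.9% at 12 h (80.2 to 95.6%). Between them its share showed no steady course. The libraries ranged from 54.9 to 86.7% at 4 h and from 57.6 to 93.15% at 8 h. The second FAD8 form took 0% in the dark and 4.17% at 12 h, so the first form carried nearly the whole FAD8 count. The second SQD2 form was listed in 4 libraries, all 3 of 2 h and 1 of 12 h.

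Of the sulfolipid genes, SQD2 was higher than in the dark at 12 h and SQD1 missed the threshold. SQD2 (chromosome 5, 86548 to 90117, reverse strand), the transferase, had 5.81, 5.85 and 8.20 FPKM in the dark and 4.61, 4.89 and 5.54 FPKM at 1 h. It had 16.5, 16.1 and 9.81 FPKM at 2 h and 8.88, 8.21 and 9.64 FPKM at 4 h. It had 16.8, 14.7 and 17.1 FPKM at 8 h and 16.9, 18.6 and 17.9 FPKM at 12 h. Levels thus went up at 2 h, were lower at 4 h and were high again at 8 h and 12 h, and all libraries from 2 h on were above the dark range. SQD2 had a log2 fold change of 1.03 (SE 0.17, adjusted p = 0.000216) at 2 h, 0.42 (adjusted p = 0.061) at 4 h, 1.35 (adjusted p = 1.41e-05) at 8 h and 1.49 (SE 0.18, adjusted p = 5.56e-06) at 12 h. At 4 h it passed the threshold without replicate 3 of the dark group (0.54, adjusted p = 0.0274), and without replicate 1 or replicate 3 of 2 h, at 0.42 and 0.43. Without both replicate 3 libraries of 0 h and 2 h, the 4 h value was 0.54 (adjusted p = 0.000863).

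SQD1 (chromosome 4, 15935373 to 15937833, forward strand), which makes the sugar donor, had 16.2, 16.8 and 22.2 FPKM in the dark and 12.6, 14.6 and 13.1 FPKM at 4 h. At 12 h it had 22.9, 21.3 and 20.5 FPKM. The 4 h libraries lay below all dark ones, and the 12 h libraries overlapped the highest dark library. SQD1 had a log2 fold change of −0.46 (SE 0.13, adjusted p = 0.00829) at 4 h and 0.28 (adjusted p = 0.0787) at 12 h. Without replicate 3 of the dark group the 12 h value was 0.39 (adjusted p = 0.0285), and without replicate 2 of 8 h it passed the threshold at 0.29, as did the 8 h value at 0.34 (adjusted p = 0.0369). The level of SQD1 was 2.78 times that of SQD2 in the dark and 1.21 times at 12 h, with an exact permutation p of 0.1, again the smallest possible.

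**Figure D3:**
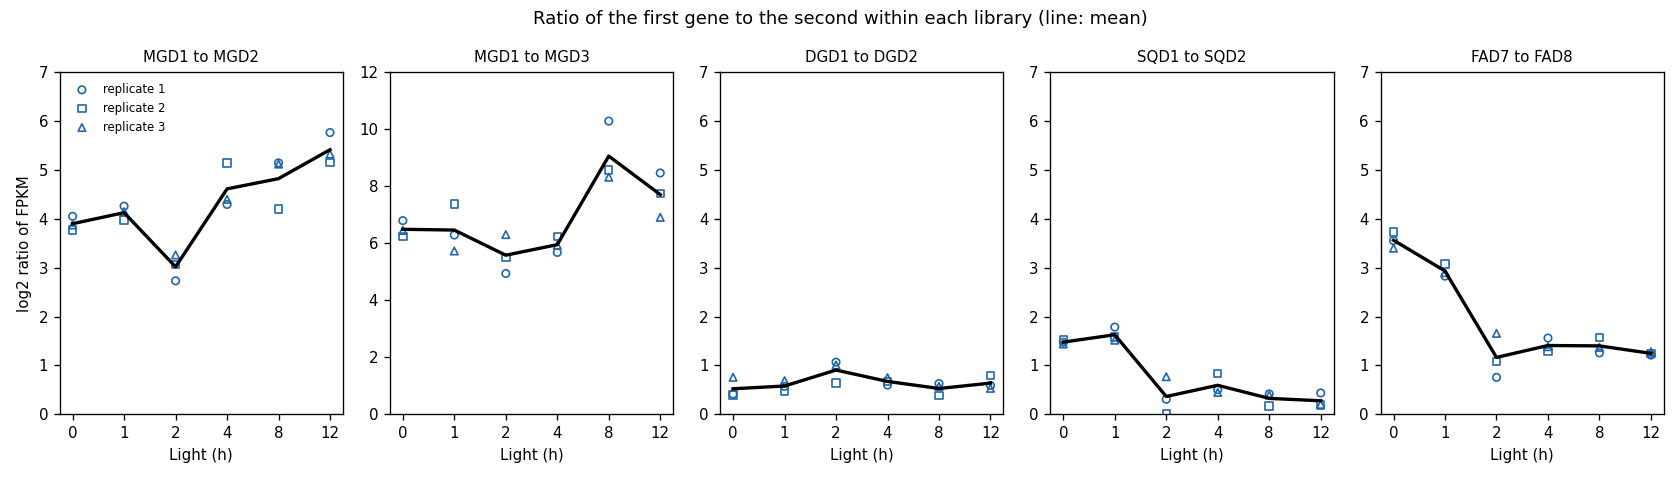
Log2 ratio of FPKM between paired genes of one step or pathway in each library, against hours of light; symbols mark the replicate, lines the means, and the second panel has its own scale. FAD7 to FAD8 goes from 3.56 to 1.25 and SQD1 to SQD2 from 1.48 to 0.28, while MGD1 to MGD2 is lowest at 2 h and highest at 12 h.

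The FAD7 to FAD8 ratio was lower in every light library than in every dark one. In the dark FAD7 was 11.8-fold above FAD8 and held 92.2% ± 0.8 of their summed FPKM (SD, n = 3). At 12 h it was 2.37-fold above FAD8 and held 70.4% ± 0.5 (SD, n = 3). The log2 ratio was 3.56 ± 0.17 before light, 2.93 ± 0.13 after 1 h, 1.16 ± 0.46 after 2 h and 1.25 ± 0.03 after 12 h (SD, n = 3 each). The ratios of the 5 light times all lay below the dark range. Each of these 5 comparisons had the exact permutation p of 0.1 and an adjusted value of 0.167. The uncertainty of the read split between FAD7 and FAD8 holds for this ratio as well.

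The order of levels changed with the desaturases. In the dark FAD6 (63.0 FPKM) was followed by FAD7 (20.7), MGD1 (19.6), SQD1 (18.4) and DGD1 (16.2), neighbours whose ranges overlapped, then by DGD2 (11.4), SQD2 (6.62), FAD8 (1.77), MGD2 (1.31) and MGD3 (0.22), of which only FAD8 and MGD2 overlapped. At 12 h the order was FAD6 (234), FAD7 (169), FAD8 (71.3), MGD1 (34.9), SQD1 (21.6), DGD1 (18.9), SQD2 (17.8), DGD2 (12.1), MGD2 (0.83) and MGD3 (0.18). Only DGD1 and SQD2 had overlapping ranges between neighbours at 12 h. FAD8 moved from the eighth place to the third.

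Between successive times, 5 of the 10 genes rose from 1 h to 2 h (28.3% of all genes) and 0 fell (21.1% of all, with 0 of the 10 also under DESeq2 and at an unadjusted p). They were FAD8, FAD7, SQD2, MGD2 and FAD6, with log2 differences of 3.41, 1.51, 1.38, 1.17 and 0.79. From 2 h to 4 h 2 rose (11.1% of all), FAD7 by 0.72 and MGD1 by 0.60, and 2 fell (12.6% of all), MGD2 by 1.01 and SQD2 by 0.61. From 4 h to 8 h 4 rose (6.57% of all), SQD2 by 0.93, FAD7 and FAD6 by 0.89 each and SQD1 by 0.67, and 2 fell (4.85% of all), MGD3 by 2.62 and DGD1 by 0.41. From 8 h to 12 h edgeR called 0 of the 10 in either direction, and 0% of all genes; at an unadjusted p under 0.05 it gave 0 of the 10 and 944 of all genes, and DESeq2 called 0 of the 10 and 13 of all genes.

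Some of these step counts rested on single libraries. From 2 h to 4 h, 1 gene rose without replicate 2 of 2 h, replicate 1 of 4 h or replicate 2 of 4 h. In the same step 0 fell without replicate 1 of 2 h or replicate 2 of 4 h, and 1 without replicate 2 of 2 h or replicate 1 of 4 h. From 4 h to 8 h, 1 fell without replicate 3 of 4 h, replicate 1 of 8 h or replicate 3 of 8 h.

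Other genes of the pathway were described by lists, whose counts at 12 h stand beside 24.1% higher and 23.3% lower over all tested genes. The list of other plastid glycolipid and desaturase genes had 5 of 5 tested genes higher at 12 h and a median log2 fold change of 1.75. FAD4, which desaturates the fatty acid of plastid phosphatidylglycerol, led it at 5.40 (adjusted p = 7.69e-10), from 2.82 ± 0.33 to 116 ± 5 FPKM (SD, n = 3 each). FAD4 was already higher at 1 h, by 2.71 (adjusted p = 2.21e-06), when FAD6, FAD7 and FAD8 missed the threshold. The lowest of the list was FAB2, the stearoyl carrier protein desaturase, at 1.40 (adjusted p = 1.58e-08).

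Of the endoplasmic reticulum desaturases, FAD2, the counterpart of FAD6, was higher at 12 h by 1.29 (adjusted p = 1.16e-05). FAD3, the counterpart of FAD7 and FAD8, averaged 29.1 ± 7.9 FPKM before light, 87.5 ± 18.4 FPKM after 2 h and 35.4 ± 11.5 FPKM after 12 h (SD, n = 3 each). Its log2 fold change was 1.50 (adjusted p = 0.000134) at 2 h and 0.32 (adjusted p = 0.283) at 12 h.

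The plastid phosphatidic acid and phosphatidylglycerol list had 7 of 9 genes higher and 0 lower at 12 h, with a median of 0.51, and single libraries left out gave 5 to 7 higher. Its highest was ATS1, the plastid glycerol-3-phosphate acyltransferase that starts the plastid route to galactolipids, at 2.10 (adjusted p = 3.83e-08), and its lowest was LPPG, a phosphatidic acid phosphatase, at −0.16 (adjusted p = 0.379). Of the 5 TGD genes, which import lipid from the endoplasmic reticulum, 2 were higher and 2 lower at 12 h. TGD1 was highest at 1.03 (adjusted p = 2.01e-05) and TGD5 lowest at −0.97 (adjusted p = 0.00379). The other lower gene, TGD4 (−0.27, adjusted p = 0.0495), missed the threshold without most single libraries, which left 1 lower. At 2 h and at 4 h 3 of the 5 were lower and 1 higher, with medians of −0.53 and −0.67. The 1 higher at 2 h, TGD1, missed the threshold without replicate 1 of the dark group or replicate 1 or 2 of 2 h (0.36 to 0.37).

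In plastid fatty acid synthesis 13 of 19 tested genes (20 listed) were higher and 1 lower at 12 h, with a median of 0.82. Single libraries left out gave 10 to 14 higher. ACP4, an acyl carrier protein of leaves, was highest at 3.28 (adjusted p = 1.81e-08), and FATB, the thioesterase that releases saturated fatty acids, was lowest at −0.71 (adjusted p = 0.00266). Of the 9 tested phosphate starvation markers 2 were higher and 1 lower at 12 h, near the shares of all genes, with a median of 0.18. Single libraries left out gave 0 to 2 higher and 1 to 2 lower. NPC4, a phospholipase of the phosphate response, was highest at 1.41 (adjusted p = 0.0196), from a mean of 0.19 FPKM to 0.49 FPKM. It missed the threshold without replicate 2 of the dark group (1.26, adjusted p = 0.0735) or of 12 h (0.93, adjusted p = 0.137). GDPD1, a phosphodiesterase, was lowest at −1.35 (adjusted p = 0.000148).

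**Figure D4:**
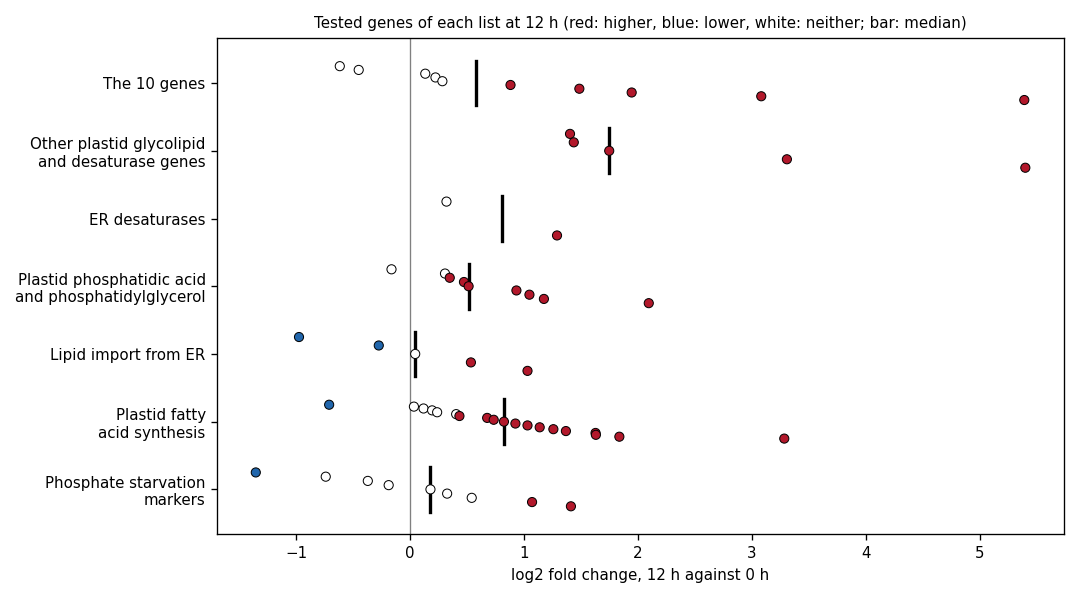
Log2 fold change at 12 h against the dark for each tested gene of the 10 and of 6 related lists; red is higher, blue lower, white neither at an adjusted p under 0.05, and bars mark medians. The other plastid glycolipid and desaturase genes are all higher (median 1.75), while the genes of lipid import lie on both sides of 0 (median 0.05).

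The marker lists followed their own courses at 12 h. Of 4 seed storage genes 4 were lower, from OLEO2 at −3.26 (adjusted p = 0.00331) to CRU3 at −10.68 (adjusted p = 8.92e-06). These sizes rest in part on replicate 3 of the dark group. Without it OLEO2 was −1.72 (adjusted p = 0.0321) and CRU3 −9.17 (adjusted p = 7.14e-06), and 4 of 4 were still lower. Of 4 light response genes 3 were higher, led by the flavonoid enzyme gene CHS at 9.37 (adjusted p = 1.21e-07), and PORA, the chlorophyll enzyme gene of etiolated tissue, was lower at −7.32 (adjusted p = 5.46e-07). Of the 4 tested root hair markers 1, RSL4, was higher at 12 h, at 2.05 (adjusted p = 0.013), while EXPA7 was the highest at 2.25 (adjusted p = 0.174) and PRX44 the lowest at 0.46. RSL4 missed the threshold without replicate 2 of the dark group (1.61, adjusted p = 0.0541) and was 3.43 without replicate 1, and PRX44 turned to −0.13 without replicate 3 of the dark group and −0.34 without replicate 1 of 12 h.

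The genes whose log2 CPM correlated best with 4 of the 10 over all 18 libraries are given as a description; the points share the 6 times, and no test was made. For MGD1 they were AT1G15730 (Pearson r = 0.986), HCF106 (0.981), a part of thylakoid protein transport, and CAF2 (0.980), a chloroplast intron splicing factor. For FAD7 they were AT1G57770 (0.996), CYP38 (0.996), a thylakoid lumen protein needed to assemble photosystem II, and AT1G64680 (0.994). For FAD8 they were AT2G36885 (0.997), PnsB3 (0.997), a subunit of the chloroplast NADH dehydrogenase-like complex, and EMB3119 (0.995). For DGD1 the values were lower, SAT32 at 0.929, the transcription factor gene NAC13 at 0.912 and AT5G17380 at 0.905.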

How the data were processed

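Per the submitters' processing notes, RSEM, Bowtie2 and HISAT2 were used, with no role stated; versions, strand setting and genome build are not given in the sources used here. Per the file headers, the deposited tables hold an expected count per gene and per transcript, an estimated read number that need not be whole. The authors also deposited FPKM values, scaled to length and depth. Genes absent from a library's table were set to 0. Groups and replicate numbers came from the sample titles; the deposited files carry other replicate numbers at 0 h and 2 h.

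Expected counts were rounded and tested with edgeR 4.0.16 (R 4.3.3; filterByExpr, TMM, quasi-likelihood, 1 term per group, 18 libraries, 20569 of 24951 genes). The call was a Benjamini-Hochberg adjusted p under 0.05, and its SE is the log2 fold change divided by the root of F, an approximation. The script was tested on simulated data for 12 h against the dark. It recovered 53 of 100 genes changed by a log2 fold of 1 and 92 of 100 changed by 2. It made 5 false calls in 20034 genes. A gene that missed the threshold is therefore not shown to be unchanged. Alternatives were RLE factors, library size alone, no filter, DESeq2 1.42.0, limma 3.58.1 on log2(FPKM + 1), a replicate block, a log2 fold minimum of 1 and each library left out. Leaving out both replicate 3 libraries, summing FAD7 and FAD8, and leaving out single libraries for the list genes were added after seeing the data. Gene pairs were compared by exact two-sided permutation of log2 FPKM ratios.

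Same-numbered libraries deviated together (all 3 correlations over 0.1) at 2 h against 0 h and in no other comparison, so the numbers were not taken as pairs. Promoters were read from the RefSeq TAIR10.1 genome. The files' coordinates of 24745 genes all lay inside the RefSeq gene of that identifier, and 18064 were identical. MGD3 starts at 4743162 in RefSeq and at 4744267 in the files, so its searched window did not reach the start given in the files.

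The 10 genes and all lists were chosen with earlier results of these data known. Named beside the 10 were the highest and lowest tested gene of each list at 12 h and the 3 genes most correlated with MGD1, DGD1, FAD7 and FAD8; COBL9, RSL4, TGD4 and the phosphate markers at 2 h were named after their values were seen. Intervals cover counting error only.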

Additional observations from a re-analysis of the deposited data

How the results depend on the processing

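Of 1260 alternative values of single genes, 1225 kept their direction and side of the threshold, 11 lost a call, 10 gained one and 14 changed sign. Many of the 1260 came from leaving out a library of neither group compared. Such a library hardly moves the fold change, so much of this agreement was given in advance. With a log2 fold minimum of 1, the genes higher numbered 0 after 1 h, 3 after 2 h and 2 after 4 h, the genes lower numbered 0 at 4 h, the step from 2 h to 4 h held 0 higher and 1 lower, and the step from 4 h to 8 h 0 higher and 1 lower. With the same minimum, higher genes at 12 h numbered 3 of the plastid phosphatidic acid list, 1 of the import list (0 lower) and 8 of fatty acid synthesis (0 lower). Scaling by library size alone, which moved the median of all genes to −0.11 at 1 h and 0.18 at 2 h, gave 2 phosphate starvation markers lower at 12 h.

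The count of genes lower at 8 h was 0 under DESeq2, limma and the replicate block, in place of 1; the block also left 9 of 10 genes in the F test and changed no other count against the dark. Leaving out single libraries gave 1 to 2 genes higher at 1 h, 0 to 1 lower at 8 h, 1 to 3 higher and 0 to 3 lower from 2 h to 4 h, and 1 to 3 lower from 4 h to 8 h.

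Signs changed where values were near 0. MGD1 at 2 h was 0.025 under library size alone and 0.0206 under limma, and FAD7 at 1 h was 0.00969 when summed with FAD8. Without both replicate 3 libraries, SQD1 at 2 h was 0.0334, and DGD2 was −0.00524 after 8 h and −0.0315 after 12 h. With single libraries left out, MGD3 ranged from −0.335 to 0.203 and FAD7 from −0.097 to 0.0119 at 1 h. DGD2 ranged from −0.00983 to 0.231 after 2 h, from −0.0032 to 0.238 after 8 h and from −0.0248 to 0.221 after 12 h. MGD2 ranged from −0.294 to 0.0345 after 4 h and from −0.305 to 0.00957 after 8 h. The causes were not tested. MGD3 had 1 to 25 counts per library.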
